A study of Mus musculus with 18 samples.

Results

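The 10 genes described here encode the 5 subunits of the transcription factor NF-κB (Nfkb1, Nfkb2, Rel, Rela and Relb) and 5 proteins that hold it back or modify it (Nfkbia, Nfkbie, Nfkbiz, Tnfaip3 and Bcl3). They were chosen by their function from the 49585 genes of a table of read counts, and each was found by its gene symbol. RNA was sequenced from CD45+ leukocytes of Kaede mice, whose cells carry a protein that turns from green to red under violet light, so that cells lit in a tissue can be recognised later. There were 18 libraries in 6 groups of 3. The study describes the libraries of the inflamed groups as pools of several mice of both sexes, and gives the age of its mice as several weeks. Pooling and sex are not described for the steady-state groups in the sources used here. For the inflamed groups the study's methods describe transfer of ovalbumin-specific T helper 1 cells, immunisation with ovalbumin in adjuvant, and a challenge with aggregated ovalbumin in the footpad or the ear. The tissue was then lit, and the red cells were sorted a day later. Joint nonmigrated and skin nonmigrated cells were red cells still in the inflamed joint or ear, and joint migrated and skin migrated cells were red cells in the lymph node that drains it. The remaining groups, labelled steady state, are described in their labels as cells that had moved to the node from a joint or an ear without inflammation. The titles of the joint steady-state libraries also hold the letters PBS and KG and those of the skin steady-state libraries the word Naive, while the study's methods name PBS as the challenge of control mice and the sources used here explain neither KG nor Naive. Whether the steady-state cells were red cells that had come from a tissue, like the migrated ones, or other cells of the node is therefore not settled, and the 2 steady-state groups may differ in handling as well as in site.

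NF-κB acts as pairs of subunits that bind κB sites in DNA. In the canonical arm, IκB proteins such as the product of Nfkbia keep RelA and c-Rel pairs in the cytoplasm until the IκB kinase, IKK, marks the inhibitor for breakdown. In the non-canonical arm, the kinase NIK leads to processing of the Nfkb2 precursor and to pairs of that product with RelB, a route used by lymphotoxin, CD40 and RANK receptors and known for its part in dendritic cells and lymphoid organs. Several of the inhibitors are themselves NF-κB target genes.

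The stretches of the members' promoters with a match to the κB decamer consensus are shown here, because κB sites are the letters NF-κB is known to bind. RefSeq (GRCm38.p6) gave promoter windows of 250 bases before to 50 bases after the start for 7 of the 10 genes, and none for Nfkb1, Relb and Nfkbiz. A match on either strand was found in 6 of these 7 genes, all but Rela, against 9.55% of the 27025 genes with a window. A match is a description of letters and not evidence of binding, and its absence from a window says nothing of the factor. Each line below gives 30 bases on the strand of the gene, 5′ to 3′, with the match or overlapping matches in capitals:

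Nfkbia, chr12:55492657-55492686, minus strand: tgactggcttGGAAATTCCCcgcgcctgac

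Nfkbie, chr17:45555584-45555613, plus strand: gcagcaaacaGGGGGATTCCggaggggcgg

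Tnfaip3, chr10:19015403-19015432, minus strand: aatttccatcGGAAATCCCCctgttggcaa

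Tnfaip3, chr10:19015516-19015545, minus strand: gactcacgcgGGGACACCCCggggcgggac

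Bcl3, chr7:19822734-19822763, minus strand: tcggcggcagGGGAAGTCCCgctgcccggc

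Rel, chr11:23771041-23771070, minus strand: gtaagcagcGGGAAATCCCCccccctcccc

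Nfkb2, chr19:46304689-46304718, plus strand: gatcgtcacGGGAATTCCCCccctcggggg

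Nfkb2, chr19:46304716-46304745, plus strand: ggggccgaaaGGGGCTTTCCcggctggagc

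The first capital lay 29 bases before the start in Nfkbia, 106 before it in Nfkbie and 92 before it in Rel. In Tnfaip3 the matches began 12 and 125 bases before the start, and in Nfkb2 39 and 11 bases before the first of its RefSeq starts. The Bcl3 match began at base 3 of the transcribed part. Further windows of Nfkb2, from later starts, held other matches. The 120 bases before the start of Nfkbia, the gene of this set that differed most between inflamed and steady-state nodes after Relb, show its site in context at chr12:55492648-55492767 on the minus strand: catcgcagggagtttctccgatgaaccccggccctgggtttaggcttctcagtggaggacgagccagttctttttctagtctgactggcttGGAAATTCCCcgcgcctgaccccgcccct. The genes themselves lie in GRCm38 at chr3:135584655-135691547 (Nfkb1), chr19:46304320-46312385 (Nfkb2), chr11:23736847-23770970 (Rel), chr19:5637483-5648130 (Rela), chr7:19606217-19629438 (Relb), chr12:55489410-55492647 (Nfkbia), chr17:45555703-45563169 (Nfkbie), chr16:55811375-55838899 (Nfkbiz), chr10:19000910-19015657 (Tnfaip3) and chr7:19808462-19822770 (Bcl3). Exons of Nfkb2 overlap those of Psd and exons of Bcl3 overlap those of Gm16175 on the opposite strand, so part of their reads may have been left uncounted or given to the neighbour.

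Total assigned counts ran from 19239531 to 43814403 per library. The 6 inflamed skin libraries had 19239531 to 22528895 and carry another style of column name than the other 12, so a difference between inflamed skin and any other set of libraries cannot be told apart from a difference between these library sets. Ptprc, which encodes CD45, was at 1156 to 2531 CPM (counts scaled to a common library size by TMM, as in the usual unit of that name) in all 18 libraries. Neutrophil markers summed to 5462 to 16548 CPM in joint nonmigrated and 1556 to 2753 CPM in skin nonmigrated cells, against 16.7 to 101 CPM in migrated cells of both sites. Migratory dendritic cell markers summed to 2684 to 7633 CPM in migrated cells. In the steady-state groups, labelled as migrated, Fscn1 was at 2.73 to 5.90 CPM and Ccl22 at 0.47 to 2.20 CPM. These markers of migrated dendritic cells were thus close to 0 there, as was Cacnb3 at 3.39 to 5.35 CPM. Ccr7, which T cells also express, was at 454 to 764 CPM. Il4i1, the remaining marker of that list, was under 0.32 CPM in every library. B cell markers summed to 2413 to 4024 CPM in the steady-state groups. In such bulk libraries fewer cells of a type and less RNA per cell cannot be told apart, and the part that cell composition had in the results below was not tested.

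All 10 genes were detected in every library and passed the filter on low counts in both fits. Relb was higher in the migrated cells of both sites than in any other library, and Nfkbia was higher in all 12 inflamed libraries than in the 6 steady-state libraries. Bcl3 was the 1 gene called in the test of whether the difference from steady state differed between the sites. All 10 genes had a lower value of this difference in joint than in skin. Site cannot be told apart there from library set and handling.

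**Figure D1:**
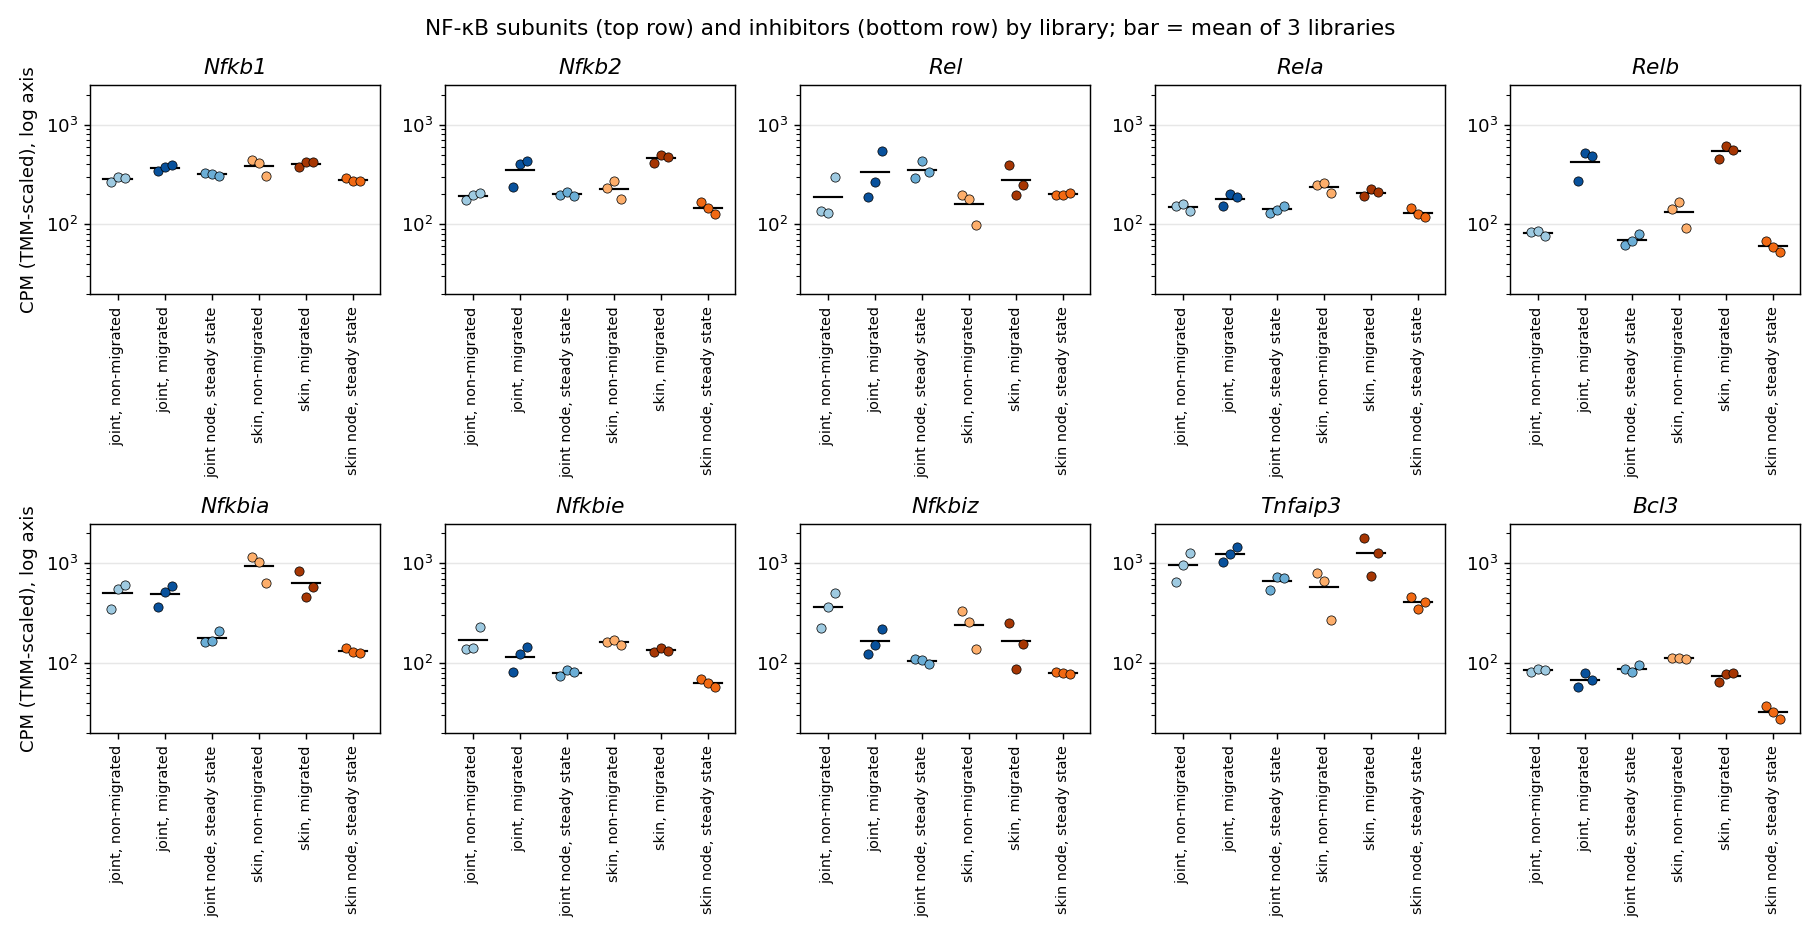
CPM (TMM-scaled, log axis) of the 5 subunits in the top row and the 5 inhibitors in the bottom row, with 1 point per library and a bar at the mean of the 3 libraries of a group. Relb is at 272 to 609 CPM in the migrated libraries and at 53.1 to 166 CPM in all others, and Bcl3 is lowest in the skin steady-state node, at 27.3 to 37.3 CPM.

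Relb, the subunit of the non-canonical arm, was at 84.0, 86.2 and 76.0 CPM in the 3 joint nonmigrated libraries and at 272, 515 and 489 CPM in the 3 joint migrated libraries. In skin it was at 141, 166 and 91.4 CPM in nonmigrated and at 449, 609 and 560 CPM in migrated libraries. The steady-state nodes had 61.5, 67.5 and 80.3 CPM (joint) and 67.0, 59.4 and 53.1 CPM (skin). All 6 migrated libraries lay above the other 12, and joint migrated replicate 1 was the lowest of them. Relb was 5.19-fold higher in joint migrated than in joint nonmigrated cells (log2 difference 2.38, SE 0.27, edgeR adjusted p = 1.9e-05) and 4.04-fold higher in skin migrated than in skin nonmigrated cells (2.02, SE 0.26, edgeR adjusted p = 5.9e-05). Against the steady-state nodes it was 6.23-fold higher in joint migrated cells (2.64, SE 0.22, edgeR adjusted p = 4.4e-07) and 9.21-fold higher in skin migrated cells (3.20, SE 0.22, edgeR adjusted p = 4.9e-08). In descending order of group means, skin migrated and joint migrated cells overlapped, while skin nonmigrated cells stood clear of the groups on either side. Below them, joint nonmigrated cells overlapped with the joint steady-state node, and the steady-state nodes overlapped with each other.

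The level of Relb followed that of Fscn1, an actin-bundling protein of mature dendritic cells. Fscn1 was at 1164, 2980 and 3112 CPM in joint migrated and at 2461, 3572 and 3640 CPM in skin migrated libraries. Joint migrated replicate 1, lowest in Relb among the migrated libraries, was also lowest in Fscn1 among them. In nonmigrated cells Fscn1 was at 16.8 to 27.0 CPM in joint and 116 to 531 CPM in skin libraries, and skin nonmigrated replicate 3 was lowest of its group for both genes. Pearson's r between log2(CPM + 1) of Relb and Fscn1 was 0.96 over the 18 libraries, which fall into groups and share their sorts, so the value is a description. The part of dendritic cell content in the difference in Relb was not tested.

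**Figure D2:**
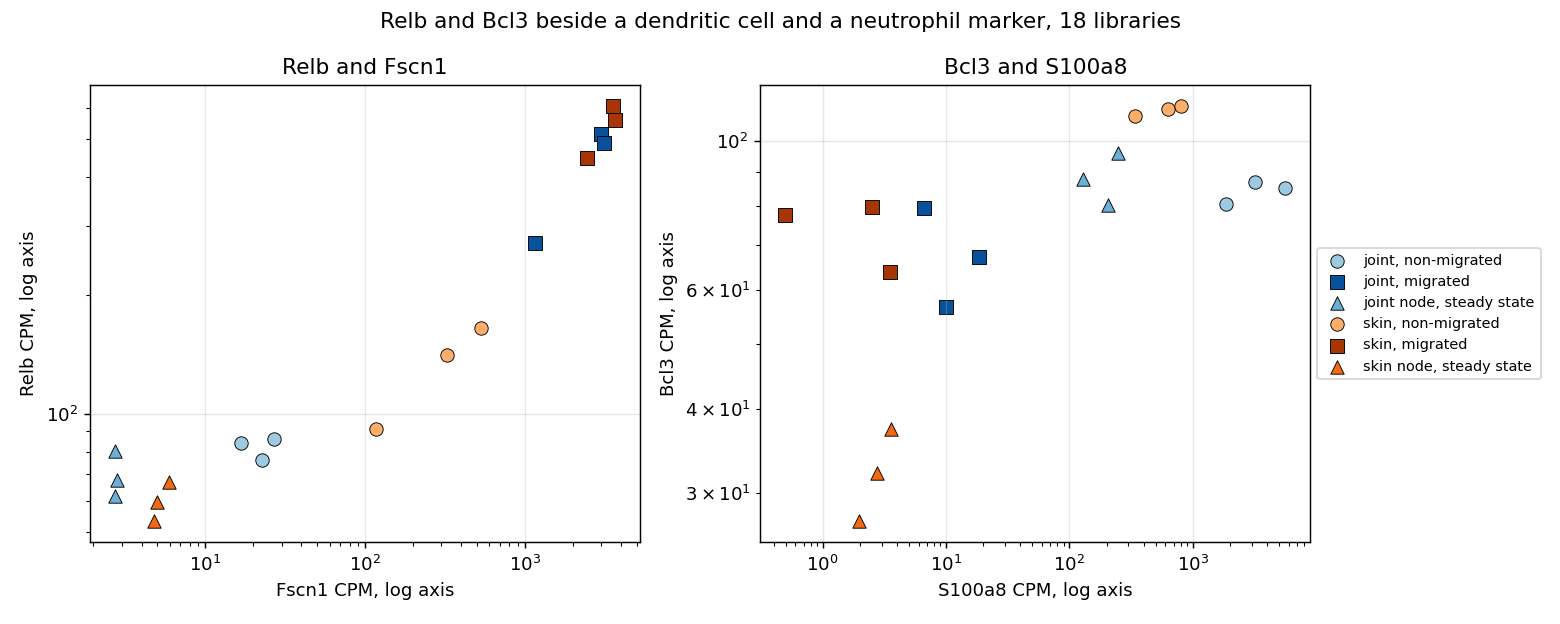
Relb against Fscn1 (left) and Bcl3 against S100a8 (right) in CPM on log axes, with 1 point for each of the 18 libraries. Relb and Fscn1 are both highest in the 6 migrated libraries, and the joint steady-state node lies above the skin steady-state node in both Bcl3 and S100a8.

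Nfkb2 encodes the precursor p100, whose product p52 pairs with RelB. It was at 177, 195 and 204 CPM in joint nonmigrated and at 235, 400 and 426 CPM in joint migrated libraries. In skin, nonmigrated libraries had 229, 269 and 180 CPM and migrated libraries 409, 501 and 475 CPM. The nonmigrated and migrated libraries of a site did not overlap. The difference passed the 2-fold limit in skin, at 2.04-fold (log2 difference 1.03, SE 0.21, edgeR adjusted p = 0.0016), and was 1.84-fold in joint (0.88, SE 0.21, edgeR adjusted p = 0.0041). The skin value fell under the fold limit, to between 0.89 and 0.99 on the log2 scale, without skin nonmigrated replicate 3, skin migrated replicate 2 or skin migrated replicate 3. The joint value rose to 1.12 without joint migrated replicate 1. In the steady-state nodes Nfkb2 was at 196, 208 and 194 CPM (joint) and 166, 144 and 127 CPM (skin). Skin migrated cells were 3.23-fold above their node (1.69, SE 0.18, edgeR adjusted p = 3.2e-06). Joint migrated cells were 1.81-fold above theirs without overlap, short of the 2-fold limit (0.86, SE 0.18, edgeR adjusted p = 0.0014).

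Nfkb1, whose precursor p105 yields p50, moved in a narrow range. Joint nonmigrated libraries had 268, 296 and 294 CPM and joint migrated libraries 341, 379 and 389 CPM, without overlap, a difference of 1.29-fold (log2 difference 0.37, SE 0.14, edgeR adjusted p = 0.036). Skin nonmigrated libraries had 436, 416 and 306 CPM and skin migrated libraries 373, 421 and 424 CPM, which overlapped (0.07, SE 0.14). The steady-state nodes were at 303 to 329 CPM (joint) and 270 to 291 CPM (skin). The group means of Nfkb1 spanned 277 to 406 CPM.

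Rela, the main activating subunit of the canonical arm, was highest in skin nonmigrated cells, at 245, 259 and 204 CPM. Skin migrated libraries had 190, 224 and 210 CPM, joint nonmigrated libraries 152, 158 and 136 CPM, and joint migrated libraries 152, 203 and 187 CPM. Migrated and nonmigrated libraries overlapped at both sites, and neighbours overlapped at every step of the order of the 6 groups. Joint nonmigrated cells lay below skin nonmigrated cells without overlap (log2 difference -0.67, SE 0.13, edgeR adjusted p = 0.0042), short of the 2-fold limit. The steady-state nodes were at 131 to 154 CPM (joint) and 118 to 146 CPM (skin). Skin migrated cells exceeded their node by 1.63-fold (0.71, SE 0.12, edgeR adjusted p = 0.00019). Joint migrated cells exceeded theirs by 1.31-fold, with overlap (0.39, SE 0.12, edgeR adjusted p = 0.016).

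Rel encodes c-Rel, the subunit prominent in lymphocytes, and it varied widely within the inflamed groups. Joint nonmigrated libraries had 136, 131 and 295 CPM and joint migrated libraries 187, 264 and 547 CPM. Skin nonmigrated libraries had 196, 179 and 98.5 CPM, and skin migrated libraries 396, 195 and 247 CPM. Nonmigrated and migrated libraries overlapped at both sites, and neither difference passed the test (0.83, SE 0.45, edgeR adjusted p = 0.14 in joint, and 0.82, SE 0.45, edgeR adjusted p = 0.14 in skin). Leaving out 1 library moved the joint value between 0.30 and 1.32, and Rel was called without joint nonmigrated replicate 3 (1.32, edgeR adjusted p = 0.036). Joint steady-state libraries, at 290, 427 and 332 CPM, had the highest mean of the 6 groups, and skin steady-state libraries were at 197, 194 and 208 CPM. All neighbours in the order of Rel overlapped.

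Levels of different genes can be compared after division by transcript length. With CPM per kilobase of merged exons, Relb made up 33.8% ± 3.4 (SD, n = 3) of the sum of the 5 subunits in joint migrated and 36.5% ± 3.2 in skin migrated cells. It made up 13.2% ± 1.7 in joint nonmigrated and 15.8% ± 1.7 in skin nonmigrated cells, and between 9.05% and 11.4% in each steady-state library. The share of Rela on this scale was 18.9% and 17.9% in joint and skin migrated cells, against 25.5% to 36.4% in the other 4 groups. With the longest transcript as the length, Relb took 30.4% and 33.0% in migrated cells and 8.57% to 13.3% elsewhere. The choice of length moved the share of Nfkb1 most, since its merged exons span 12061 bases and its longest transcript 4149 bases. The log2 ratio of Relb to Rela CPM, which can be compared between groups without any length, was 1.19 ± 0.31 in joint migrated and 1.37 ± 0.11 in skin migrated cells (SD, n = 3), against -0.86 ± 0.02 in joint nonmigrated and -0.87 ± 0.26 in skin nonmigrated cells. It was -1.02 ± 0.08 and -1.12 ± 0.03 in the joint and skin steady-state nodes. The 6 migrated libraries were the ones with more Relb than Rela counts.

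**Figure D3:**
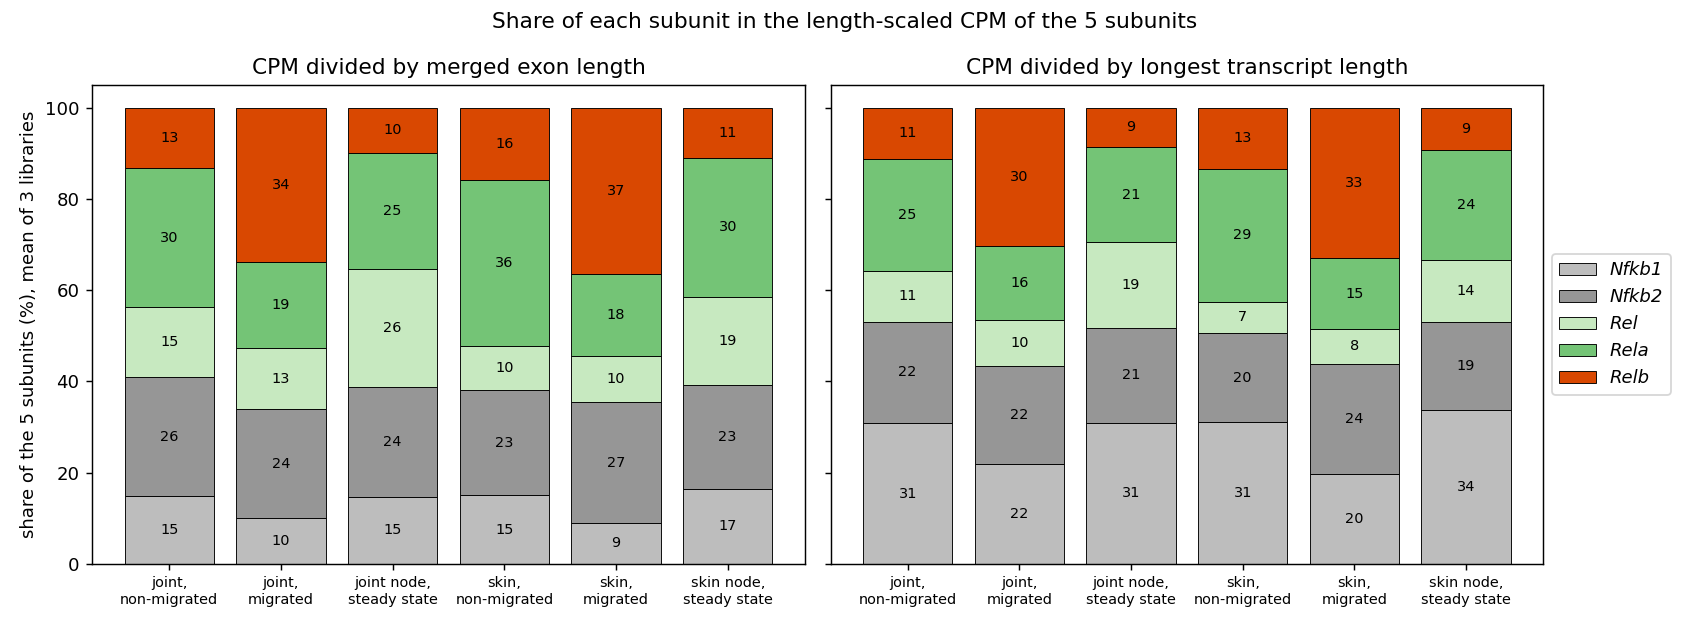
Stacked bars of the mean share of each subunit (percent, 3 libraries a group) in the length-scaled CPM of the 5 subunits, with merged exon length on the left and longest transcript length on the right. Relb takes 34% and 37% of the sum in the migrated groups on the left and 30% and 33% on the right, and at most 16% in any other group.

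Nfkbia encodes IκBα, the inhibitor that newly activated NF-κB restores. Per kilobase of merged exons it had the highest mean of the 10 genes in each of the 6 groups, at 81.7 to 584 CPM per kilobase. Joint nonmigrated libraries had 350, 553 and 601 CPM and joint migrated libraries 361, 519 and 592 CPM, almost the same range. Skin nonmigrated libraries had 1161, 1020 and 638 CPM and skin migrated libraries 844, 464 and 581 CPM, which overlapped. The steady-state nodes were far lower, at 162, 165 and 207 CPM (joint) and 141, 129 and 125 CPM (skin). The 12 inflamed libraries all lay above the 6 steady-state libraries. Nfkbia was 2.82-fold higher in joint migrated cells than in their node at steady state (log2 difference 1.495, SE 0.21, edgeR adjusted p = 6.3e-05) and 4.89-fold higher in skin migrated cells (2.29, SE 0.22, edgeR adjusted p = 9.6e-07). Migrated and nonmigrated cells differed by -0.03 (SE 0.30) in joint and -0.58 (SE 0.30) in skin, and neither passed the test.

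Between the nonmigrated groups, Nfkbia was lower in joint than in skin without overlap (log2 difference -0.91, SE 0.30, edgeR adjusted p = 0.041). This stayed under the 2-fold limit, but passed it without skin nonmigrated replicate 3 or without joint nonmigrated replicate 3, at up to -1.12 on the log2 scale.

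Nfkbie encodes IκBε, a further cytoplasmic inhibitor. It was at 137, 142 and 231 CPM in joint nonmigrated and 80.5, 122 and 144 CPM in joint migrated libraries, an overlapping pair of groups (log2 difference -0.56, SE 0.22, edgeR adjusted p = 0.0499). The skin nonmigrated libraries had 164, 170 and 152 CPM and skin migrated libraries 128, 142 and 131 CPM, which did not overlap but did not pass the test either (-0.28, SE 0.22). The steady-state nodes held 74.7 to 84.8 CPM (joint) and 58.0 to 69.7 CPM (skin). Skin migrated cells were 2.15-fold above their node (1.11, SE 0.16, edgeR adjusted p = 4.6e-05) and joint migrated cells 1.48-fold (0.56, SE 0.16, edgeR adjusted p = 0.0095).

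Nfkbiz encodes IκBζ, a nuclear member that switches on a subset of secondary response genes. It was at 225, 367 and 503 CPM in joint nonmigrated and at 122, 152 and 219 CPM in joint migrated libraries. The ranges came within a few CPM of each other without overlap. Nfkbiz was 2.22-fold lower in joint migrated cells (log2 difference -1.15, SE 0.42, edgeR adjusted p = 0.037). The call was lost, with an edgeR adjusted p of up to 0.14, without joint nonmigrated replicate 2 or 3 or without joint migrated replicate 1 or 2. In skin, nonmigrated libraries had 331, 259 and 138 CPM and migrated libraries 251, 86.9 and 156 CPM, which overlapped (-0.56, SE 0.42). Steady-state nodes were at 97.9 to 109 CPM (joint) and 78.1 to 82.0 CPM (skin), and skin migrated cells were 2.11-fold above their node (1.08, SE 0.29, edgeR adjusted p = 0.0047). That call was lost without skin migrated replicate 1, when the log2 difference was 0.60. Joint migrated cells were 1.60-fold above their node without overlap, but did not pass the test (0.68, SE 0.28, edgeR adjusted p = 0.062).

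Tnfaip3 encodes A20, an enzyme that trims ubiquitin chains and ends NF-κB signalling. Joint nonmigrated libraries had 655, 966 and 1269 CPM and joint migrated libraries 1038, 1242 and 1451 CPM. The values in skin nonmigrated libraries were 795, 672 and 270 CPM, and in skin migrated libraries 1815, 748 and 1256 CPM. The groups overlapped at both sites. The skin difference was 2.19-fold (log2 difference 1.13, SE 0.40, edgeR adjusted p = 0.031), and the joint difference 0.37 (SE 0.40, edgeR adjusted p = 0.45). The skin call was lost without skin nonmigrated replicate 3, skin migrated replicate 1 or skin migrated replicate 3, with log2 differences of 0.80, 0.79 and 1.12. Steady-state libraries were at 540, 725 and 708 CPM (joint) and 459, 351 and 408 CPM (skin), all below the migrated libraries of the same site. Skin migrated cells were 3.20-fold above their node (1.68, SE 0.26, edgeR adjusted p = 7.1e-05), and joint migrated cells 1.93-fold (0.95, SE 0.25, edgeR adjusted p = 0.0065), just under the fold limit.

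Bcl3 encodes a nuclear IκB protein that acts with p50 and p52 pairs. It was at 80.5, 86.9 and 85.1 CPM in joint nonmigrated and 56.7, 79.4 and 67.2 CPM in joint migrated libraries. Skin nonmigrated libraries had 112, 113 and 109 CPM and skin migrated libraries 63.9, 77.6 and 79.6 CPM. Migrated libraries lay below nonmigrated ones at both sites, by 0.59 on the log2 scale in skin (-0.59, SE 0.13, edgeR adjusted p = 0.0018) and 0.31 in joint (-0.31, SE 0.13, edgeR adjusted p = 0.052), short of the 2-fold limit.

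At steady state Bcl3 was at 87.8, 80.2 and 95.7 CPM in the joint-draining node and at 37.3, 32.1 and 27.3 CPM in the skin-draining node. The 2 nodes did not overlap, and the joint node was 2.71-fold higher (log2 difference 1.44, SE 0.14, edgeR adjusted p = 4.2e-05). Skin migrated cells were 2.34-fold above their node (1.22, SE 0.14, edgeR adjusted p = 7.2e-06), whereas joint migrated cells differed from theirs by -0.34 (SE 0.14, edgeR adjusted p = 0.058). The difference of these 2 differences, joint minus skin, was -1.57 (SE 0.20, edgeR adjusted p = 0.00043). S100a8, a neutrophil gene, was at 128, 207 and 247 CPM in the joint and at 3.59, 2.76 and 1.96 CPM in the skin steady-state node, and the 7 neutrophil markers summed to 430 to 850 CPM and 12.9 to 20.6 CPM there. Skin migrated libraries, with Bcl3 at 63.9, 77.6 and 79.6 CPM, had S100a8 at 3.49, 0.50 and 2.53 CPM. In nonmigrated cells S100a8 was at 1846, 3196 and 5591 CPM in joint and at 631, 801 and 342 CPM in skin. Bcl3 was lower in the joint libraries of that pair. The part of neutrophil content, or of the handling of the steady-state mice, in the difference in Bcl3 was not tested.

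The comparison of migrated with nonmigrated cells asks how cells that left an inflamed tissue differ from those that stayed. In joint, 2 of the 10 genes were called (edgeR adjusted p under 0.05 and a change above 2-fold): Relb rose and Nfkbiz fell. Among all 16777 genes tested, 16.0% were called higher and 18.4% lower in joint migrated cells, so 1 of 10 in each direction is no more than the background. In skin, Nfkb2, Relb and Tnfaip3 were called higher, and none of the 10 lower, against 15.7% of all genes called higher and 19.7% lower. The median log2 difference of the 10 genes was 0.33 in joint and -0.06 in skin, beside 0.02 and 0.01 for all genes. No member passed the test of site by migration: 0 of 10 were called by edgeR or by DESeq2. Of the 10, 1, Rela, had an unadjusted edgeR p under 0.05 (log2 difference 0.47, SE 0.19), beside 4407 of all 16777 genes. Over all genes 3.96% were called with a positive value of this difference, joint minus skin, and 2.17% with a negative one.

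**Figure D4:**
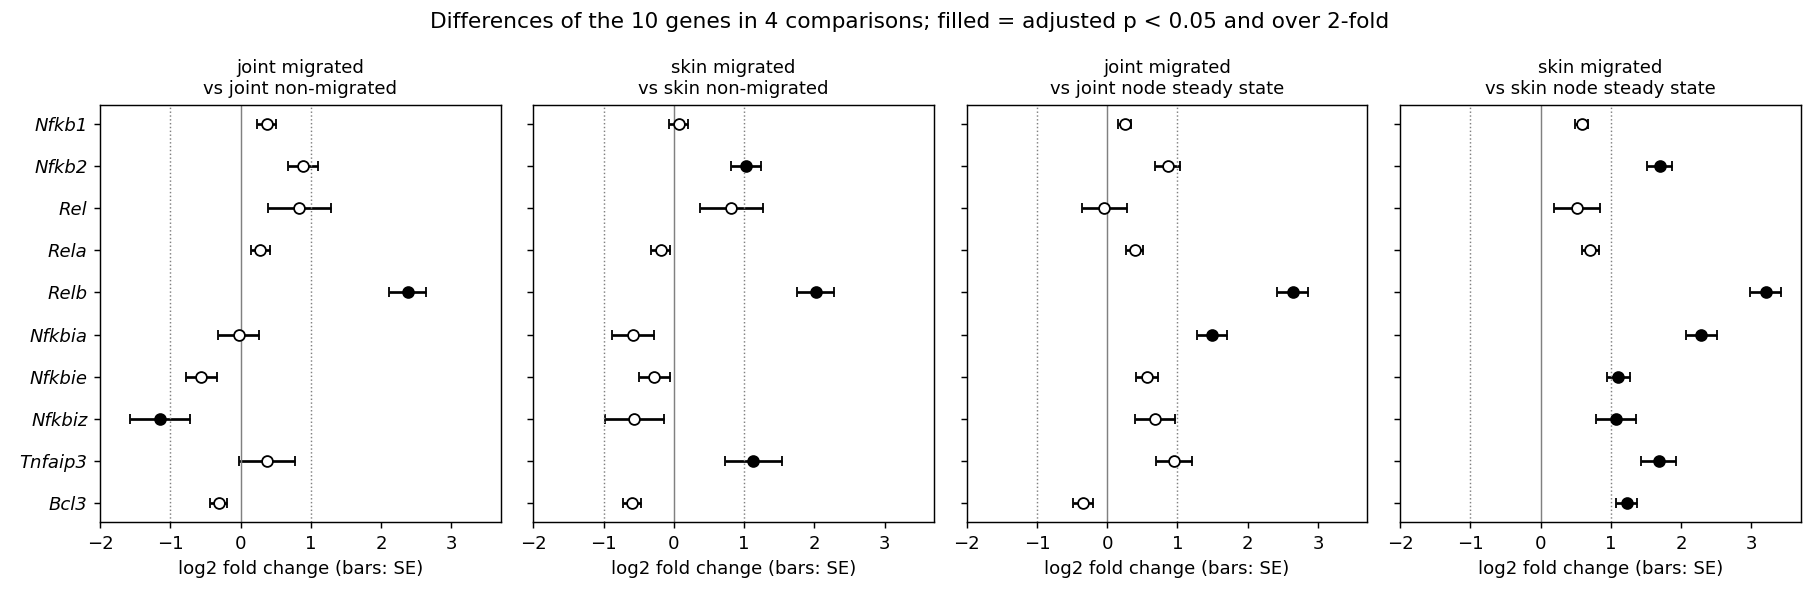
Log2 fold changes of the 10 genes (points) with their standard errors (bars) in 4 comparisons, with filled points for genes called at an adjusted p under 0.05 and over 2-fold and dotted lines at the 2-fold limit. Relb is filled in all 4, at 2.02 to 3.20, and against skin steady state 7 of the 10 genes are filled.

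The comparison of the sites asks whether joint and skin cells differ within a compartment. In nonmigrated cells 0 of the 10 were called in the comparison of joint with skin by edgeR or by DESeq2, against 5.45% of all genes called higher in joint and 8.86% lower. Rela, Nfkbia, Nfkb1 and Bcl3 had an edgeR adjusted p under 0.05 with lower values in joint, at -0.67, -0.91, -0.44 and -0.40 on the log2 scale. Of the 10, 5 had an unadjusted edgeR p under 0.05, beside 6794 of all 16777 genes, so this count is near the background. In migrated cells 0 of 10 were called by either tool. The background was also small, at 0.56% of all genes called higher and 0.578% lower in joint migrated cells. Of the 10, 0 had an unadjusted edgeR p under 0.05 there, beside 2770 of all 16777 genes. The log2 differences between the migrated groups ran from -0.38 (Nfkb2, SE 0.21) to 0.25 (Rel, SE 0.45).

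The comparison with the steady-state nodes asks how cells that had left inflamed tissue differ from node cells without inflammation. Because the origin of the steady-state cells is not settled, a difference between inflammation and its absence cannot be told apart here from one between cells that came from a tissue and other cells of the node. In skin, 7 of the 10 were called higher in migrated cells (Nfkb2, Relb, Nfkbia, Nfkbie, Nfkbiz, Tnfaip3 and Bcl3) and none lower, against 21.5% of all 17107 genes called higher and 15.0% lower. In joint, Relb and Nfkbia were called higher and none lower, against 16.9% and 7.31% of all genes, and without joint migrated replicate 1 Nfkb2 and Tnfaip3 were called as well, making 4. The median log2 difference of the 10 genes was 1.17 in skin and 0.62 in joint, beside 0.0016 and -0.022 for all genes. Between the steady-state nodes all 10 genes had the higher value in the joint node, with a median log2 difference of 0.41, but Bcl3 alone was called, against 3.23% of all genes called higher in the joint node and 0.655% lower. In the test of site by inflammation, joint minus skin, all 10 had a negative value, with a median of -0.56 on the log2 scale. Bcl3 was again the 1 gene called, and all other members had an edgeR adjusted p of at least 0.053. Of the 10, 5 had an unadjusted edgeR p under 0.05, beside 4635 of all 17107 genes. By DESeq2, 2 of the 10 had an adjusted p under 0.05. Over all genes 2.33% were called with a positive and 3.78% with a negative value. The joint and skin migrated libraries enter several of these comparisons, so the comparisons are not independent of each other.

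Of 26 IKK kinases and adaptors, 5 were called higher and 1 lower in joint migrated against nonmigrated cells, and 3 higher and 4 lower in skin. Over all genes, 16.0% were called higher and 18.4% lower in joint and 15.7% and 19.7% in skin, so apart from the 1 called lower in joint, which is under its background, these counts are near the background. Map3k14, which encodes NIK, had mean levels of 85.7 CPM in joint nonmigrated and 159 CPM in joint migrated cells (log2 difference 0.90, SE 0.24, edgeR adjusted p = 0.0076), and of 171 and 207 CPM in skin (0.27, SE 0.24). It was called higher in skin migrated cells than in their node (1.16, SE 0.17, edgeR adjusted p = 5.3e-05) and lower in joint than in skin nonmigrated cells (-1.003, SE 0.24, edgeR adjusted p = 0.011). The kinase subunit genes Chuk, Ikbkb and Ikbkg were not called in any of the 9 comparisons, and the largest of their differences was 0.68 on the log2 scale (Ikbkb, skin migrated against nonmigrated, SE 0.15). Birc2, which encodes the ubiquitin ligase cIAP1, was higher in migrated cells at both sites, at 258 against 49.7 CPM in joint and 316 against 82.6 CPM in skin. Card9, an adaptor of fungal pattern receptors in myeloid cells, was called lower in migrated cells at both sites, at 20.8 against 107 CPM in joint and 30.5 against 66.4 CPM in skin. Tbk1 and Malt1 were called lower in skin migrated cells, at 74.1 against 206 CPM and 327 against 868 CPM.

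Of 11 receptor genes that signal to NF-κB, 3 were called higher and 5 lower in joint migrated cells and 2 higher and 5 lower in skin migrated cells, relative to nonmigrated cells. The shares of all genes were 16.0% higher and 18.4% lower in joint and 15.7% and 19.7% in skin, and the 2 called higher in skin are near that background. Cd40 and Tnfrsf13c, the receptor for BAFF, were higher in both. Tlr2 and Tlr4, which sense bacterial products, were lower in both, with Tlr4 at 2.51 against 94.1 CPM in joint and 2.08 against 122 CPM in skin. Ltbr, which encodes the lymphotoxin β receptor, was also called lower in both, at 13.2 against 129 CPM in joint and 17.8 against 111 CPM in skin. Of 8 ligand genes, 3 were called higher and 4 lower in joint and 1 higher and 4 lower in skin. Ltb, which encodes lymphotoxin β, was higher in migrated cells, at 233 against 37.0 CPM in joint and 204 against 57.1 CPM in skin, while Il1a was lower, at 1.02 against 83.3 CPM and 1.22 against 392 CPM. Against steady state, Tnfrsf11a, which encodes RANK, was higher in migrated cells, at 75.0 against 1.02 CPM in joint and 98.9 against 0.44 CPM in skin. It was not called against nonmigrated cells, which had 87.6 CPM in joint and 51.5 CPM in skin. Ltb had lower means in migrated cells than at steady state, where it was at 349 CPM (joint) and 371 CPM (skin). Tnfrsf13c was called lower than at steady state, at 31.6 against 146 CPM in joint and 7.95 against 131 CPM in skin. B cell markers differed between these groups as well. They summed to 630 to 879 CPM in joint migrated, 106 to 190 CPM in skin migrated and 4.56 to 260 CPM in nonmigrated cells. At steady state they summed to 2413 to 4024 CPM. Their part in the levels of Tnfrsf13c was not tested.

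Among 11 other negative regulators, Cyld, which encodes a deubiquitinase, was the 1 gene called higher in joint migrated cells, at 171 against 84.4 CPM, and none was called higher in skin migrated cells. Over all genes 16.0% were called higher in joint and 15.7% in skin, so neither of these counts is above the background. There were 2 called lower in joint and 3 in skin, beside 18.4% and 19.7% of all genes, which is near the background. Irak3, an inhibitor of Toll-like receptor signalling in macrophages, was lower in both, at 18.7 against 103 CPM and 14.8 against 204 CPM. Tnip3 was also called lower in both, at 5.48 against 58.5 CPM in joint and 15.4 against 32.4 CPM in skin, and Rnf11 was called lower in skin migrated cells, at 28.7 against 106 CPM. Of the other IκB genes, Nfkbid was called higher in joint than in skin nonmigrated cells, at 224 against 92.0 CPM, and Nfkbib was called higher in skin migrated cells than in their node, at 106 against 39.6 CPM.

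Known target genes of NF-κB were mostly lower in migrated than in nonmigrated cells and higher than at steady state. The list of these genes was chosen with earlier results of these data known, so the counts below are a description. It holds Ccl22, which is also among the dendritic cell markers used here. Of 24 such genes, 15 were called lower and 4 higher in joint migrated cells, and 15 lower and 3 higher in skin migrated cells, relative to nonmigrated cells, with medians of -1.99 and -2.59 on the log2 scale. Among all genes 18.4% were called lower and 16.0% higher in joint and 19.7% and 15.7% in skin, with medians of 0.02 and 0.01, so the counts of target genes called higher are near or under the background. Nos2, the inducible nitric oxide synthase, was at 0.072 against 127 CPM in joint and 2.24 against 2246 CPM in skin. Saa3, an acute-phase gene, was at 0.85 against 110 CPM in joint, and the chemokine gene Ccl2 at 0.29 against 121 CPM in skin. Ccl22, a dendritic cell chemokine, was called higher at both sites, at 636 against 58.4 CPM in joint and 873 against 324 CPM in skin, as was Ccl5, at 820 against 130 CPM and 737 against 163 CPM. Il12b was called higher in joint, at 22.8 against 2.79 CPM, and Vcam1 in skin, at 31.8 against 5.97 CPM. Macrophage markers summed to 2749 to 9093 CPM in nonmigrated and 36.0 to 147 CPM in migrated cells, and their part in the target gene levels was not tested.

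Against steady state 22 of the 24 target genes were called higher in skin migrated cells and none lower, with a median of 4.55 on the log2 scale, against 21.5% and 15.0% of all genes. The 2 others were Sod2 and Saa3. In joint migrated cells 16 were called higher and 2, Nos2 and Saa3, lower, with a median of 1.86, against 16.9% and 7.31% of all genes. Levels in the nodes at steady state were low for several of these genes, with Il12b at 0.054 CPM and Ccl17 at 0.053 CPM in the joint node, so no fold is given for them. The 2 called lower in joint were low in both groups. Nos2 was at 0.072 CPM in joint migrated cells against 0.28 CPM in the joint node, and Saa3 at 0.85 against 3.04 CPM. Between the steady-state nodes 11 of the 24 target genes were called higher in joint, against 3.23% of all genes, among them Cxcl2 (29.7 against 1.00 CPM) and Ptgs2 (22.7 against 1.55 CPM), and 1, Ccl22, was called lower, against 0.655%. In the test of site by inflammation 12 of 24 were called with a negative value, joint minus skin, against 3.78% of all genes. None was called with a positive value, against 2.33%. Between the migrated groups 0 of the 24 were called higher in joint and 1 lower, against 0.56% and 0.578% of all genes. The 7 neutrophil markers summed to 430 to 850 CPM in the joint and 12.9 to 20.6 CPM in the skin steady-state node. Their part in the target gene levels was not tested. Site cannot be told apart here from library set and handling.

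**Figure D5:**
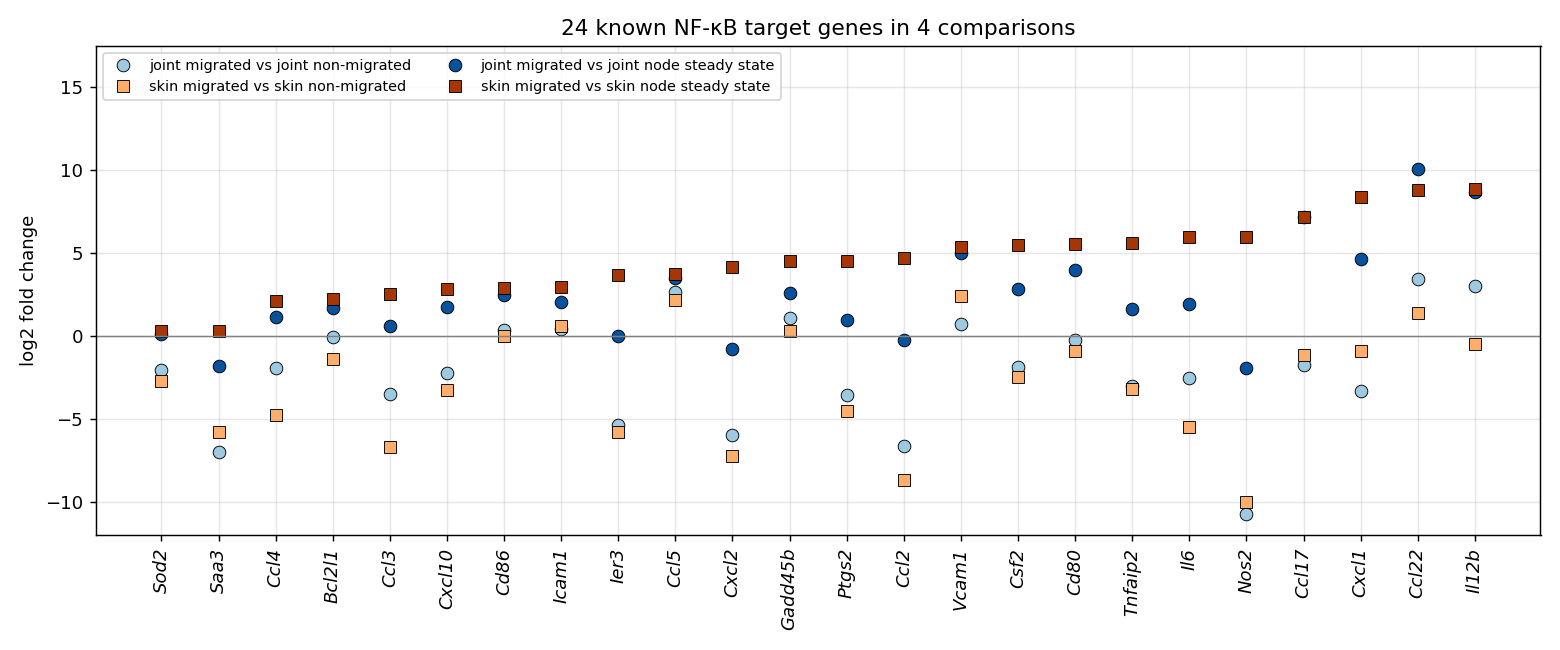
Log2 fold changes of 24 known NF-κB target genes in 4 comparisons (points), ordered by the difference between skin migrated cells and the skin steady-state node. Most pale points (against nonmigrated cells) lie below 0 and most dark points (against steady state) above it. Ccl22 and Ccl5 are among several genes above 0 in all 4.

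The patterns of the 10 genes across the 18 libraries were compared with those of the 18156 genes that passed the filter over all libraries, by Pearson's r of log2(CPM + 1). Relb was most like Myo1g, a myosin of haematopoietic cells, and Efna2 (r = 0.99 for each), and among the members most like Nfkb2 (r = 0.96). Nfkb2 was most like Bsdc1 and Rassf3 (r = 0.98 and 0.96). Nfkb1 was most like Plb1 and Map3k14 (r = 0.94 and 0.93). Rela was most like Zfp513 and Ier5 (r = 0.96 and 0.95). Rel was most like Psd and Gm6611 (r = 0.88 and 0.87), and its r with the other members ran from -0.13 (Rela) to 0.57 (Tnfaip3).

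Nfkbia was most like Stx11 and Rnf19b (r = 0.98 and 0.97), Nfkbie like Gm16712 and Hspa1b (r = 0.96 and 0.95), and Nfkbiz like Gm17024 and the chemokine gene Cxcl1 (r = 0.97 and 0.93). Tnfaip3 was most like Areg and Tnfsf11 (r = 0.94 and 0.93) and Bcl3 like Ifitm1 and Gcnt2 (r = 0.94 and 0.90). Nfkbia, Nfkbie and Nfkbiz had r of 0.77 to 0.89 with each other, whereas Nfkbiz and Relb had r = 0.14. The libraries share sites, sorts and sequencing depths, so these values describe the libraries and are given without a test.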

How the data were processed

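Bulk RNA-seq was made from 18 samples of cells. The authors trimmed the reads, aligned them with TopHat2 to mm10 with version 87 gene models and counted them with HTSeq in its default mode, and the deposited unit is a raw count per gene. The strandedness of the libraries is not given in the sources used here. HTSeq's 5 summary lines, 11.3% to 15.1% of a library's total, were removed, and symbols and positions came from GENCODE M21 (49326 of 49585 genes matched). Counts were tested with edgeR 4.0.16 (R 4.3.3, limma 3.58.1; quasi-likelihood F test, TMM, filterByExpr with a minimum count of 10) in 2 fits of 12 libraries, the inflamed and the lymph node groups, with group as the factor and Benjamini-Hochberg adjustment over all genes. The calling limits were 0.05 for the adjusted p and 1 for the size of the log2 fold change. Standard errors were the size of the log2 fold change over the root of F. CPM were scaled by TMM factors of all 18 libraries. Alternatives were DESeq2 1.42.0, its size factors, no filter, a replicate block, other library sets, thinned counts, an adjusted p limit of 0.001 and leaving out each library. Same-group libraries differed beyond counting error (chi-square 16.2 to 129.6 times its degrees of freedom). The labels do not say how the pools were kept separate, so p-values measure the spread between these libraries. Each comparison was run on simulated counts with known changes as a check of the code. The 10 genes, the 6 pathway lists and the cell type markers were chosen with earlier results of these data known. From each list the called genes with the largest changes were named, at most 2 per direction and comparison, plus Map3k14, Chuk, Ikbkb and Ikbkg. Sod2, Ptgs2 and Ccl17 were named after their values were seen. A gene selected by this naming rule is not reported here.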

Additional observations from a re-analysis of the deposited data

Results flagged for a closer look

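The difference of Bcl3 from steady state differed between the 2 sites by the test of the difference itself, with a log2 value of -1.57 for joint minus skin (SE 0.20, edgeR adjusted p = 0.00043). Joint migrated libraries (56.7, 79.4 and 67.2 CPM) lay below the joint steady-state node (87.8, 80.2 and 95.7 CPM), and skin migrated libraries (63.9, 77.6 and 79.6 CPM) lay above the skin steady-state node (37.3, 32.1 and 27.3 CPM). The inflamed skin libraries form their own set by column name and depth, and the 2 steady-state groups carry different titles, so site, library set and handling cannot be told apart.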

How the results depend on the processing

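The calls of Relb in 4 comparisons, of Nfkbia in 2, of Nfkb2, Nfkbie, Tnfaip3 and Bcl3 against the skin steady-state node, and of Bcl3 between the steady-state nodes and in the test of site by inflammation held in every fit run, 12 of the 16 calls. At an adjusted p under 0.001, the calls fell to 1 gene (Relb) in joint migrated against nonmigrated cells and to 1 (Relb) in skin. Without 1 library, the calls ran from 1 to 2 in joint migrated against nonmigrated cells (1 without joint nonmigrated replicate 2 or joint migrated replicate 2), from 1 to 3 in skin (1 without skin nonmigrated replicate 3 or skin migrated replicate 3), from 0 to 1 between the nonmigrated groups and from 2 to 4 in joint migrated cells against their node. Tnfaip3 in skin lost its call when only the groups compared were fitted (1.12, edgeR adjusted p = 0.072).

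The labels name no source shared by libraries of the same number, so the main tests were unpaired. Same-numbered migrated and nonmigrated libraries correlated, in their deviations from the group means, at 0.005 to 0.18 in joint and 0.044 to 0.12 in skin. Each library correlated best with its own number in skin, and 2 of 3 of each group did in joint, which is a hint of pairing from the data and leaves it unsettled. With the replicate block within site, 6 of the 7 genes called in skin migrated cells against their node remained (Nfkbiz was lost) and the counts of the other comparisons did not change.

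Signs turned for 14 of the 90 differences, none of them called, and the causes were not tested. Nfkbiz between the migrated groups, at -0.00018, became 0.0045 with DESeq2 size factors, 0.0046 with DESeq2, 0.065 without the filter, 0.039 with the replicate block and 0.010 after thinning. Tnfaip3 became 0.035 there without the filter, and Rel in the test of site by migration -0.030 with the replicate block. Leaving out 1 library gave these ranges of log2 differences. In joint migrated against nonmigrated cells Nfkbia ran from -0.24 to 0.16, and in skin Nfkb1 from -0.069 to 0.17. Between the nonmigrated groups Rel ran from -0.24 to 0.45 and Nfkbie from -0.21 to 0.21. Between the migrated groups Rel ran from -0.27 to 0.60, Nfkbie from -0.37 to 0.014, Nfkbiz from -0.28 to 0.45, Tnfaip3 from -0.27 to 0.33 and Bcl3 from -0.25 to 0.012. In the test of site by migration Nfkb2 ran from -0.29 to 0.10, Rel from -0.51 to 0.50 and Nfkbie from -0.43 to 0.0048. Rel against the joint steady-state node ran from -0.59 to 0.21, and Nfkbiz in the test of site by inflammation from -0.65 to 0.073. Groups of 3 libraries limit what can be told for Rel, Nfkbiz and Tnfaip3, whose libraries spread widely within groups.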
